A study of Mus musculus with 24 samples.

Results

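Liver RNA of alcohol-fed XX (female) mice was compared with that of alcohol-fed XY (male) mice that had received control vectors only. These 6 mice are part of a series of 24, and each library was assigned by its labels alone. The tested features were the 2218 autosomal genes, of 2372 genes in the table, that reached 1 FPKM in at least 3 of the 24 libraries. FPKM counts fragments per gene, scaled to transcript length and to the mapped fragments of a library.

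The XX control group and the XY control group held 3 mice each, and every mouse took 2 injections of adeno-associated virus (AAV), both with a control short hairpin RNA (AAV-shControl). All mice of the series drank the Lieber-DeCarli liquid diet with alcohol for 3 weeks. The other settings, each again with 3 XX and 3 XY mice, paired AAV-shControl with AAV-shAhR, paired AAV-shKdm5b and AAV-shKdm5c with AAV-shControl, or combined AAV-shKdm5b and AAV-shKdm5c with AAV-shAhR. No group without alcohol or without a vector was analysed here, so the sex difference cannot be split into a part that precedes the diet and a part that follows it. The labels give neither strain, age, cage nor collection time. Sex chromosomes, gonadal hormones and anything else that went with sex in these mice cannot be told apart.

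Sex differences of the rodent liver are set largely by growth hormone, which the pituitary releases in separate pulses in males and more steadily in females. The hormone acts through its receptor and the transcription factor STAT5B. Target genes include cytochrome P450 enzymes, which oxidise steroids, drugs and lipids, sulfotransferases, which conjugate them, and the major urinary proteins, which carry pheromones in male mouse urine. The study's title asks about sex-specific roles of the KDM5 demethylases in alcohol-associated liver disease, and the comparison described here is the sex difference in mice whose vectors target none of them.

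Levels of 4 genes on the Y chromosome (Uty, Ddx3y, Eif2s3y and Kdm5d) were apart between XX and XY mice in all 24 libraries. FPKM values do not show how deeply a library was sequenced. Among the 6 libraries, log2 levels correlated between 0.983 and 0.990 (Pearson's r across genes) within XX, between 0.988 and 0.993 within XY, and between 0.911 and 0.940 across the sexes. XX mouse 2 stood closest to XY. Of 839 autosomal genes that passed and whose groups did not overlap, the XX value nearest to the XY mean came from XX mouse 2 in 452, from XX mouse 1 in 191 and from XX mouse 3 in 196. Nothing in the labels says how the 3 samples of a group were kept or taken. The p-values measure only the spread between samples within groups, pooled over all 24 libraries.

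Sex marked a large share of the genes in the table. How these genes were chosen is not given, so the shares hold within this table only. With control vectors, 931 autosomal genes passed (42% of those tested, adjusted p under 0.05 in limma), of which 675 were higher in XX (30.4%) and 256 lower in XX (11.5%). Differences of 16-fold or more were found in 15 genes higher in XX and in 15 lower in XX. At 4-fold or more there were 36 higher and 37 lower, and at 2-fold or more 186 higher and 97 lower. The median size among the genes that passed was 0.72 on the log2 scale for those higher and -0.72 for those lower. The 6 values did not overlap between the sexes in 616 of the genes higher in XX and 223 of those lower, against 46.9% of all genes tested.

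The balance between higher and lower depended on scaling. The 19 Mup genes took 5.15%, 4.23% and 2.99% of the summed FPKM in the XX mice, against 17.6%, 19.9% and 25.7% in the XY mice. FPKM divides by the library total, and the median log2 fold change over all autosomal genes was 0.15. After median-of-ratios scaling that median was -0.01, and 465 genes were higher in XX (21%) and 477 lower (21.5%). The share of calls that were higher in XX was therefore 72.5% as deposited and 49.5% after scaling. All 465 were among the 675, all 256 were among the 477, and no gene was called in opposite directions. Fold changes below are as deposited, and a call that scaling removes is named as such.

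**Figure D1:**
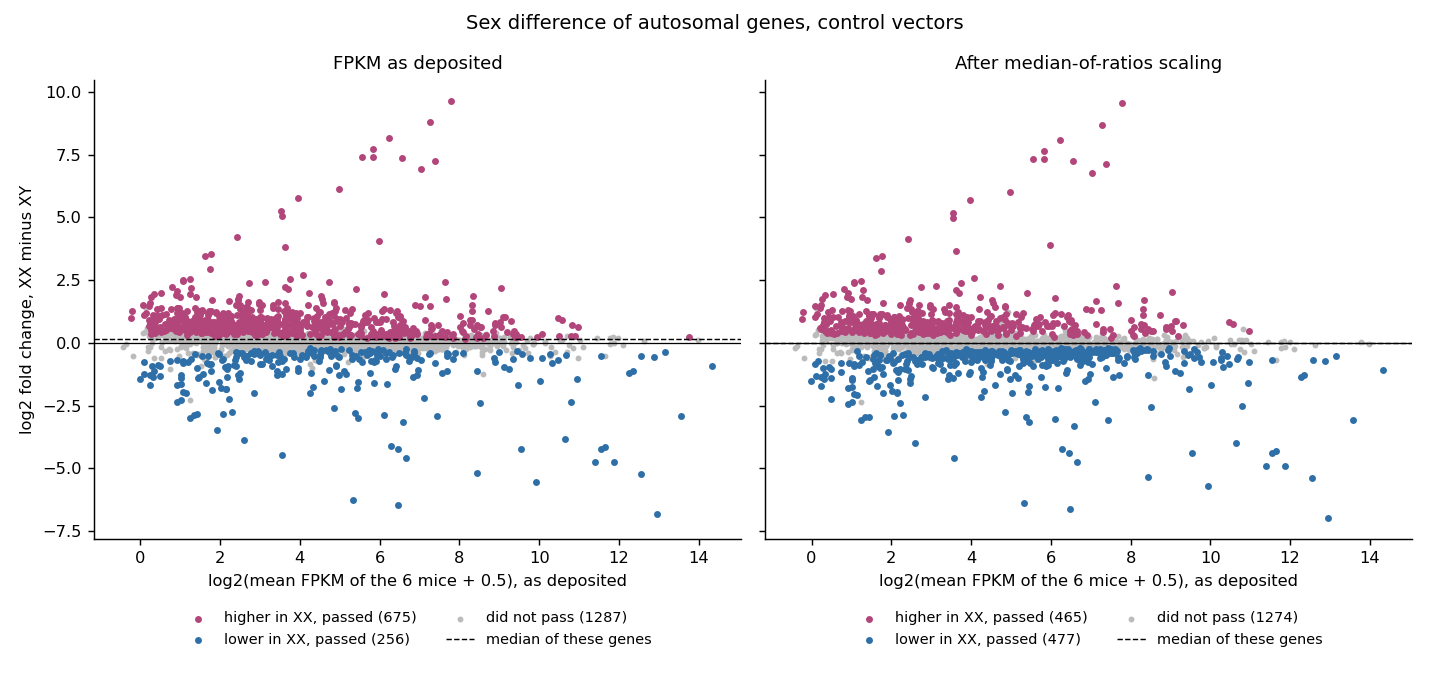
Log2 fold change (XX minus XY, y axis) of autosomal genes against the log2 mean FPKM of the 6 control-vector mice (x axis), as deposited (left) and after median-of-ratios scaling (right). Points are genes, coloured by whether they passed and in which direction, and the dashed line is the median, at 0.15 and -0.01. The genes beyond 16-fold keep their place in both panels, while many small differences move from not passed to lower.

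Cytochrome P450 genes of the Cyp2a, Cyp2b, Cyp2c and Cyp3a families were among those with the largest differences in favour of XX. Cyp3a41a, a steroid hydroxylase gene on chromosome 5 (145694049 to 145720136 of GRCm38.p6), measured 466.8, 360.5 and 490.7 FPKM in XX livers, against 0.13, 0 and 0 FPKM in XY livers. Each XX liver held the transcript at a high level and the XY livers held almost none. The log2 fold change was 9.66 ± 0.42 (SE; adjusted p = 4.15e-13) with the pseudocount of 0.5 FPKM used throughout, 11.69 with 0.1 FPKM and 8.71 with 1 FPKM. Fold sizes of genes this close to 0 in XY livers thus depend on the pseudocount, as for Cyp2b13 (9.84 with 0.1 FPKM and 6.75 with 1 FPKM). Cyp2a4, a testosterone 15-alpha-hydroxylase, measured 261.0, 253.7 and 408.7 FPKM in XX livers, against 0.49, 0.14 and 0 FPKM in XY livers, with log2 fold change 8.79 ± 0.37 (adjusted p = 2.59e-13). Cyp2b13 stood at 119.7, 140.1 and 78.2 FPKM in XX livers, against 0, 0.07 and 0 FPKM in XY livers, and Cyp2b9 at 397.5, 306.9 and 291.3 FPKM in XX livers, against 3.73, 2.36 and 0.31 FPKM in XY livers. Both encode enzymes of the CYP2B subfamily, which in mouse liver is also inducible by drugs. Their log2 fold changes were 7.72 ± 0.22 and 7.27 ± 0.50 (adjusted p = 5.57e-16 and 5.27e-10).

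Not every close relative followed. Cyp2b10, the drug-inducible member of the same subfamily, measured 7.37, 27.1 and 13.0 FPKM in XX livers, against 9.96, 26.6 and 40.9 FPKM in XY livers, and did not pass (log2 fold change -0.67, adjusted p = 0.33). In the Cyp2c family 8 of 12 genes were higher in XX and 2 lower. Cyp2c69 averaged 187.1 ± 96.2 FPKM in XX livers and 0.517 ± 0.155 FPKM in XY livers (SD, n = 3 each), and Cyp2c40 averaged 258.2 ± 52.2 FPKM in XX livers and 1.69 ± 0.848 FPKM in XY livers. Cyp2c54 went the other way, at 115.6 ± 50.1 FPKM in XX livers and 260.0 ± 94.5 FPKM in XY livers, and it passed in 3 of the 6 fits that left out 1 library. Cyp2a22 averaged 118.1 ± 31.4 FPKM in XX livers and 6.61 ± 2.20 FPKM in XY livers, a 16.9-fold difference. All 5 Cyp3a genes in the table were higher in XX.

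Copies of these genes share sequence, which limits how far single members can be told apart. Of all 100-base windows in the GENCODE vM21 transcripts of Cyp3a41a, 90.8% also occur in transcripts of another gene, with Cyp3a41b as the largest partner. The share was 35.4% for Cyp2c69, 34.4% for Cyp2c40, 11.2% for Cyp2a4 and 5.37% for Cyp3a44. The counting step that assigned such reads is not given in the sources used here.

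The Cyp3a cluster shows such near copies in its promoters as well, and all 3 genes shown here were near or at 0 in XY livers. Cyp3a44 measured 39.2, 34.0 and 17.3 FPKM in XX livers, against 0, 0.07 and 0 FPKM in XY livers. Cyp3a16 measured 15.7, 6.05 and 7.40 FPKM in XX livers and was listed at 0 in each XY liver. Below are the 200 bases before the annotated start of each gene from RefSeq (GRCm38.p6), written 5′ to 3′ on the gene's strand. They are followed by those of Slc22a26 and Sult3a1, which are other genes nearly silent in XY livers, and of Mup7, the gene with the largest difference in the other direction. Capitals mark ATTGAT (or ATCAAT, the same motif on the other strand), a core sequence bound by HNF6 and CUX2, and TTCNNNGAA, the palindromic core bound by STAT5.
Cyp3a41a, chr5:145720137-145720336, minus strand: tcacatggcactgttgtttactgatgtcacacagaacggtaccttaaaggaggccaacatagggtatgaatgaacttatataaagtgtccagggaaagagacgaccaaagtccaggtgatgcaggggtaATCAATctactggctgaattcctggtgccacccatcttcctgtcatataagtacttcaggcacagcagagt
Cyp3a44, chr5:145805875-145806074, minus strand: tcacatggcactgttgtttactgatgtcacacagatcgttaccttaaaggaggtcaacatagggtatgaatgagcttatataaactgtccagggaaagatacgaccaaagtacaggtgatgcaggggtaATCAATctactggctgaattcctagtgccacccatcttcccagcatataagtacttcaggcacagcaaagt
Cyp3a16, chr5:145469724-145469923, minus strand: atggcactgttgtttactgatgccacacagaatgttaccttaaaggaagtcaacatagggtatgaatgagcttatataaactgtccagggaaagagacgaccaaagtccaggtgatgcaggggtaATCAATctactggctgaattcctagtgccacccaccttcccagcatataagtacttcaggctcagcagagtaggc
Slc22a26, chr19:7802668-7802867, minus strand: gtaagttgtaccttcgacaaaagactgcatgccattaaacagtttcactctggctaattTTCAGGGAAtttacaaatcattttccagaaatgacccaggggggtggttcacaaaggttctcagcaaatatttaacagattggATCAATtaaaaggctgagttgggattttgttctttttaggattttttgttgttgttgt
Sult3a1, chr10:33857522-33857721, plus strand: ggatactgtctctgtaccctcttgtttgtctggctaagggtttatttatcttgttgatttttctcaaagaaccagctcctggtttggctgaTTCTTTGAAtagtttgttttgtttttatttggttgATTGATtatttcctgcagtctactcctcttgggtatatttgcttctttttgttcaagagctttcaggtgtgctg
Mup7, chr4:60070476-60070675, minus strand: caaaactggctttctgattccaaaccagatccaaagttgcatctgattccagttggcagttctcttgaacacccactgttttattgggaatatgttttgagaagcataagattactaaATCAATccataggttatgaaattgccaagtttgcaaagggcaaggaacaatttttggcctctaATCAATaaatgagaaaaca

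The promoter of Cyp3a41a shared 188 of 200 bases with that of Cyp3a44 and 183 with that of Cyp3a16. Each of these 3 held the ATTGAT motif once, with its first base 71, 71 and 75 bases before the start. Slc22a26 held TTCNNNGAA 141 bases before the start and ATTGAT 58 bases before it, and Sult3a1 held them 109 and 74 bases before it. Mup7 held ATTGAT at 82 and 19 bases before the start and no TTCNNNGAA in this window. A match of letters is a description and not a bound site. The genes shown were picked by hand. All of them hold ATTGAT, which most windows of the genes that differed at least 4-fold lack, so they do not stand for those genes.

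Over the full 300-base windows (250 before and 50 after the start, motifs searched on both strands), ATTGAT occurred in 9 of 37 windows of the genes at least 4-fold higher in XX (24.3%). It occurred in 10 of 28 windows of the genes at least 4-fold lower in XX (35.7%). Among all 32851 windows of the table the share was 7.54%, and among those of the tested autosomal genes 6.08%. Over all genes that passed, at any size, it was 6.82% for those higher in XX and 9.96% for those lower. TTCNNNGAA occurred in 13.5% of the windows of the genes at least 4-fold higher and in 0 of the 28 windows of those at least 4-fold lower. It occurred in 8.30% of all windows and in 7.2% of those of the tested autosomal genes. Over all genes that passed, its share was 7.12% for those higher in XX and 6.51% for those lower. Near copies such as the Cyp3a and Mup genes count several times in these shares. Windows were at hand for 30 of the 36 and 26 of the 37 genes, and for 99 of the 130 genes chosen by the naming rule.

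Over the whole list of 47 P450 genes of xenobiotic and steroid metabolism 18 were higher in XX and 13 lower, with a median log2 fold change of -0.06, and after scaling 18 and 18. Over 57 genes of phase II conjugation 18 were higher and 16 lower, with a median of -0.03, and after scaling 16 and 22.

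Conjugating enzymes and transporters were the other genes held almost entirely by XX livers. Sult2a2 and Sult2a1, sulfotransferases of hydroxysteroids and bile acids on chromosome 7, measured 175.7, 100.2 and 169.3 FPKM and 138.0, 46.8 and 92.5 FPKM in XX livers, and both were listed at 0 in each XY liver. No fold is given for genes listed at 0. Of the 100-base windows of Sult2a2 34.6% also occur in transcripts of other genes, and of those of Sult2a1 11.4%, so that their single values are uncertain. Sult3a1, a sulfotransferase of amines, measured 21.8, 25.6 and 19.0 FPKM in XX livers, against 0.13, 0.13 and 0 FPKM in XY livers. In the Sult2a subfamily as a whole 4 of 5 genes were higher in XX and 1 was lower.

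The organic anion transporter genes Slc22a26 and Slc22a27 both lie on chromosome 19. Slc22a26 measured 64.3, 49.1 and 70.9 FPKM in XX livers, against 0.64, 0.29 and 0.23 FPKM in XY livers, and its log2 fold change was 6.14 ± 0.24 (adjusted p = 1.44e-13). Slc22a27 averaged 22.4 ± 9.09 FPKM in XX livers and 0.157 ± 0.150 FPKM in XY livers.

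**Figure D2:**
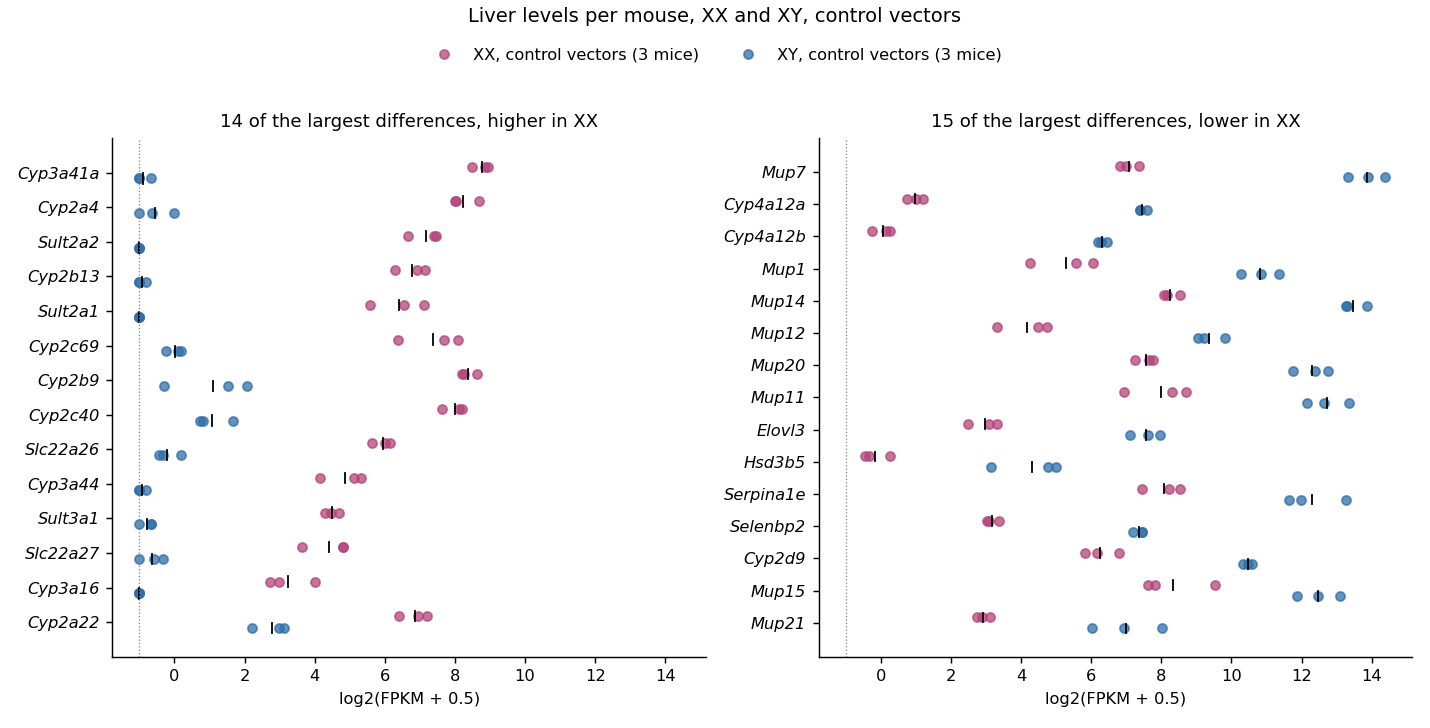
Level in each of the 6 control-vector mice, as log2(FPKM + 0.5) on the x axis, of 14 genes with the largest differences higher in XX (left) and 15 lower in XX (right). Points are mice (XX above XY for each gene), short bars are group means, and the dotted line marks a listed value of 0. The sexes do not overlap in any of these 29 genes, by the rule that chose them.

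The genes most reduced in XX encode major urinary proteins, male-type P450 enzymes and enzymes of steroid and lipid metabolism. Mup7 (chromosome 4, 60066469 to 60070475) measured 165.7, 112.8 and 127.0 FPKM in XX livers, against 10310, 15302 and 21521 FPKM in XY livers. The lowest XY liver thus lay far above the highest XX liver, and the log2 fold change was -6.81 ± 0.58 (SE; adjusted p = 1.56e-08). Of the 19 Mup genes 17 were lower in XX, with a median log2 fold change of -3.16 over all 19. Mup20, which encodes the male pheromone darcin, measured 199.8, 152.1 and 216.5 FPKM in XX livers, against 5340, 3451 and 6908 FPKM in XY livers. The log2 fold changes of Mup1, Mup11, Mup12, Mup14, Mup15 and Mup21 were -5.54, -4.73, -5.18, -5.22, -4.16 and -4.09.

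A pair of Mup genes differed from the rest. Mup2 measured 3248, 2840 and 1725 FPKM in XX livers, against 2508, 3667 and 5236 FPKM in XY livers, and did not pass (adjusted p = 0.20). Mup10 averaged 2270 FPKM in XX livers and 1335 FPKM in XY livers and passed as higher in XX as deposited (adjusted p = 0.031), but not after scaling (adjusted p = 0.099). Both were chosen after their values were seen. Of the 100-base windows of Mup7 76.1% occur in other genes, and of those of Mup15 97.3%, so that values of single Mup genes are uncertain. Mup20 and Mup21, at 38.8% and 4.5%, share less.

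Cyp4a12a and Cyp4a12b, fatty acid omega-hydroxylases, were nearly absent from XX livers. Cyp4a12a measured 1.49, 1.18 and 1.78 FPKM in XX livers, against 167.3, 190.9 and 165.9 FPKM in XY livers, with log2 fold change -6.47 ± 0.40 (adjusted p = 1.12e-10). Cyp4a12b averaged 0.547 ± 0.186 FPKM in XX livers and 78.5 ± 7.24 FPKM in XY livers. These 2 genes share about 36% of their 100-base windows with each other. Cyp2d9, a testosterone 16-alpha-hydroxylase, measured 70.7, 109.9 and 56.2 FPKM in XX livers, against 1286, 1434 and 1528 FPKM in XY livers (log2 fold change -4.21 ± 0.27, adjusted p = 1.57e-10).

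Elovl3, an elongase of very long chain fatty acids, measured 7.98, 9.51 and 5.14 FPKM in XX livers, against 137.5, 197.3 and 249.3 FPKM in XY livers, 24.2-fold lower in XX. Hsd3b5, a 3-ketosteroid reductase, measured 0.70, 0.23 and 0.29 FPKM in XX livers, against 26.5, 31.7 and 8.36 FPKM in XY livers. Selenbp2, a selenium-binding protein gene, was 18.6-fold lower in XX, with 8.47 ± 1.15 FPKM in XX livers and 165.6 ± 16.0 FPKM in XY livers. Serpina1e, an alpha-1-antitrypsin copy, measured 174.6, 367.4 and 297.3 FPKM in XX livers, against 3165, 4022 and 9814 FPKM in XY livers. XY mouse 3 alone lay far above the other XY mice for this gene.

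Most genes known as sex-biased in mouse liver moved as their name says. Of 39 tested autosomal genes listed as female-biased 34 were higher in XX and 1 was lower, with a median log2 fold change of 2.22 (0.15 over all autosomal genes). The gene lower in XX was Aqp4, a water channel, at 0.407 ± 0.283 FPKM in XX livers and 3.03 ± 0.581 FPKM in XY livers. Cd36, the fatty acid transporter often given as female-biased, measured 50.5, 64.6 and 51.1 FPKM in XX livers, against 53.9, 38.0 and 29.6 FPKM in XY livers, and did not pass (adjusted p = 0.22). Of 48 genes listed as male-biased 39 were lower in XX and 1 was higher, with a median of -1.70. The gene higher in XX, Spp2, lost its call after scaling (adjusted p = 0.055). Both lists hold genes known for this direction and were written with earlier results of these data known, so their counts describe and do not test.

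Regulators of the sex-biased programme were measured too. Of 19 genes of growth hormone signalling and of sex-dependent liver transcription factors, 7 were higher in XX and 0 were lower as deposited, and after scaling 7 and 1. Of all autosomal genes 30.4% were higher and 11.5% lower as deposited, and 21% and 21.5% after scaling. The share of calls on this list was thus near that of all autosomal genes. Cux2, a homeodomain repressor typical of female mouse liver, measured 2.71, 2.74 and 11.1 FPKM in XX livers, against 0.36, 0.05 and 0.06 FPKM in XY livers, with log2 fold change 2.94 ± 0.50 (adjusted p = 0.00011). XX mouse 3 stood above the other XX mice, and all 3 stood above the XY mice. Prlr, the prolactin receptor, was 4.42-fold higher in XX, at 67.5 ± 9.21 FPKM in XX livers and 15.9 ± 7.40 FPKM in XY livers. Trim24, a nuclear receptor coregulator, was 2.97-fold higher. Socs2, an inhibitor of growth hormone signalling, measured 7.21, 6.91 and 14.1 FPKM in XX livers, against 3.21, 2.44 and 1.99 FPKM in XY livers.

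Others of the same list did not pass. Bcl6, a repressor typical of male mouse liver, measured 7.75, 5.52 and 6.15 FPKM in XX livers, against 4.73, 3.89 and 4.56 FPKM in XY livers, above the XY values in all 3 XX mice (log2 fold change 0.50 ± 0.29, adjusted p = 0.16). The log2 fold change was 0.35 for Stat5b (adjusted p = 0.068), 0.05 for the receptor gene Ghr (adjusted p = 0.80) and 0.08 for Igf1, a growth hormone target (adjusted p = 0.68). Onecut1, which encodes HNF6, averaged 2.16 ± 0.88 FPKM in XX livers and 2.12 ± 0.40 FPKM in XY livers. Nr1i2, the pregnane receptor that induces Cyp3a genes, was 1.83-fold higher in XX (adjusted p = 1.29e-05), and Esr1, the oestrogen receptor, 1.51-fold higher (adjusted p = 0.0083).

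Bile acid genes were called in both directions. Of 25 genes of bile acid synthesis and transport 7 were higher in XX and 8 lower, and after scaling 6 and 12. Cyp7b1, the oxysterol 7-alpha-hydroxylase of the alternative pathway, measured 10.1, 8.65 and 7.99 FPKM in XX livers, against 51.3, 103.4 and 79.5 FPKM in XY livers, 8.05-fold lower in XX. Cyp8b1, which directs synthesis to cholic acid, measured 84.99, 286.0 and 55.1 FPKM in XX livers, against 568.4, 501.4 and 687.3 FPKM in XY livers. XX mouse 2 stood apart from the other XX mice, and none overlapped with XY (log2 fold change -2.39 ± 0.38, adjusted p = 5.83e-05). Cyp7a1 encodes the enzyme that limits the rate of the classic pathway. It measured 5.57, 17.7 and 1.86 FPKM in XX livers, against 27.1, 12.7 and 46.4 FPKM in XY livers. Its groups overlapped through XX mouse 2 and XY mouse 2, and its call (adjusted p = 0.023) held in 2 of the 6 fits that left out 1 library.

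Transport genes differed in both directions. Slco1a1, a sinusoidal organic anion carrier, averaged 10.2 ± 4.72 FPKM in XX livers and 72.1 ± 25.3 FPKM in XY livers, and its relative Slco1a4 averaged 44.1 ± 25.3 FPKM in XX livers and 13.1 ± 3.22 FPKM in XY livers. The bile salt export pump gene Abcb11 measured 154.9, 83.6 and 126.9 FPKM in XX livers, against 62.3, 60.6 and 53.6 FPKM in XY livers, 2.00-fold higher in XX (adjusted p = 0.00027). Cyp2c70, the enzyme that makes muricholic acids in mice, was 3.57-fold higher in XX (adjusted p = 0.0006).

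Of 12 enzymes of alcohol and aldehyde oxidation 6 were lower in XX, 1 was higher and 5 did not pass, and after scaling 10 were lower and 1 higher. Adh1, the liver alcohol dehydrogenase, measured 2341, 1335 and 2297 FPKM in XX livers, against 1315, 1144 and 714 FPKM in XY livers. All 3 XX mice lay above the XY mice, XX mouse 2 only just (log2 fold change 0.91 ± 0.23, adjusted p = 0.0036). Cyp2e1, the alcohol-inducible P450, averaged 4995 ± 1060 FPKM in XX livers and 7111 ± 539 FPKM in XY livers, 1.44-fold lower in XX (adjusted p = 0.0056). Cat, which encodes catalase, was 1.37-fold lower. Among the aldehyde dehydrogenases, Aldh1a1 measured 389.7, 342.1 and 374.7 FPKM in XX livers, against 921.2, 720.1 and 563.2 FPKM in XY livers (adjusted p = 0.00031). Aldh1a7 and Aldh7a1 had log2 fold changes of -0.78 and -0.55, the first with a call in 4 of the 6 fits that left out 1 library.

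Genes of lipid metabolism were called in both directions. Of all autosomal genes 42% passed, 30.4% as higher in XX and 11.5% as lower, and after scaling 21% were higher and 21.5% lower. Of 34 genes of fatty acid oxidation and PPAR alpha 5 were higher in XX and 6 lower, with a median of -0.14, and after scaling 4 were higher and 18 lower. Acot3, a peroxisomal acyl-CoA thioesterase, measured 28.3, 37.6 and 66.9 FPKM in XX livers, against 13.3, 5.59 and 4.98 FPKM in XY livers. Acsl1, the main acyl-CoA synthetase, was 1.69-fold lower in XX (adjusted p = 2.38e-05). Ppargc1a, a coactivator of mitochondrial genes, and Pdk4, a kinase that spares glucose, were 2.27-fold and 2.13-fold higher.

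Of 20 genes of fatty acid synthesis, elongation and triglycerides 5 were higher in XX and 4 lower, and after scaling 4 and 7. Lpin1, a phosphatidate phosphatase, measured 30.9, 46.5 and 27.8 FPKM in XX livers, against 4.66, 15.1 and 9.90 FPKM in XY livers, with log2 fold change 1.88 ± 0.50 (adjusted p = 0.0051). Srebf1, the master regulator of lipogenesis, was 2.45-fold higher in XX. Cidec, a lipid droplet protein, measured 1.32, 3.84 and 1.85 FPKM in XX livers, against 9.61, 6.08 and 17.3 FPKM in XY livers, and passed in 4 of the 6 fits that left out 1 library. Of 10 cholesterol genes 4 were higher and 1 lower, and after scaling 3 and 1. Lss (1.599-fold higher) overlapped between the sexes and lost its call after scaling (adjusted p = 0.054), Soat2 was 1.69-fold higher and Tm7sf2 1.67-fold lower.

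Of 29 genes of glucose, amino acid and urea metabolism, 2 were higher in XX and 5 lower, and after scaling 2 and 10. Bhmt, which remethylates homocysteine from betaine, measured 438.6, 1611 and 217.8 FPKM in XX livers, against 3439, 1869 and 3095 FPKM in XY livers. XX mouse 2 again lay nearest to XY (log2 fold change -2.34 ± 0.58, adjusted p = 0.0033). Oat, an ornithine aminotransferase, overlapped through XX mouse 2, and Ppp1r3b, a glycogen-targeting subunit, was 2.00-fold higher in XX.

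Among 13 autosomal clock genes 4 were higher in XX and 2 lower, and after scaling 3 and 3. This share of calls was near the 42% of all autosomal genes. Npas2, Per1 and Cry1 were 2.15-fold, 2.01-fold and 2.00-fold higher, and Dbp, a clock output factor, was 2.46-fold lower with overlapping groups and a call in 2 of the 6 fits that left out 1 library. The hour of collection is not in the labels, and its part was not tested. Of 16 glucocorticoid-responsive genes 7 were higher and 0 lower, and after scaling 6 and 0. This share of calls too was near the 42% of all autosomal genes, of which 30.4% were higher and 11.5% lower. After scaling 21% of all autosomal genes were higher and 21.5% lower. The metallothionein genes Mt2 and Mt1, which bind zinc, measured 458.8, 751.9 and 340.0 FPKM and 386.9, 613.8 and 366.5 FPKM in XX livers. In XY livers Mt2 measured 157.3, 120.9 and 120.7 FPKM and Mt1 measured 211.8, 147.2 and 191.0 FPKM. Lcn2 and Gadd45b, also on this list, were 2.65-fold and 2.36-fold higher, and Lcn2 lost its call after scaling (adjusted p = 0.071).

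Plasma proteins of defence also differed. Of 23 acute phase and iron genes 11 were higher in XX and 2 lower, and after scaling 9 and 3. Hamp2, a hepcidin gene, measured 952.1, 1017 and 610.4 FPKM in XX livers, against 152.3, 173.3 and 236.1 FPKM in XY livers, 4.55-fold higher in XX. Saa2 and Saa1, which encode serum amyloid A, were 4.002-fold and 3.08-fold higher. Of 32 complement and coagulation genes 12 were higher and 7 lower, and after scaling 6 and 10. The terminal complement gene C6 measured 7.81, 7.89 and 7.24 FPKM in XX livers, against 39.9, 42.6 and 66.1 FPKM in XY livers (log2 fold change -2.58 ± 0.18, adjusted p = 8.51e-10). C8b was 3.06-fold lower, Cfd, which encodes adipsin, averaged 0.220 FPKM in XX livers and 2.97 FPKM in XY livers, and the mannose-binding lectin gene Mbl2 was 2.85-fold higher.

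**Figure D3:**
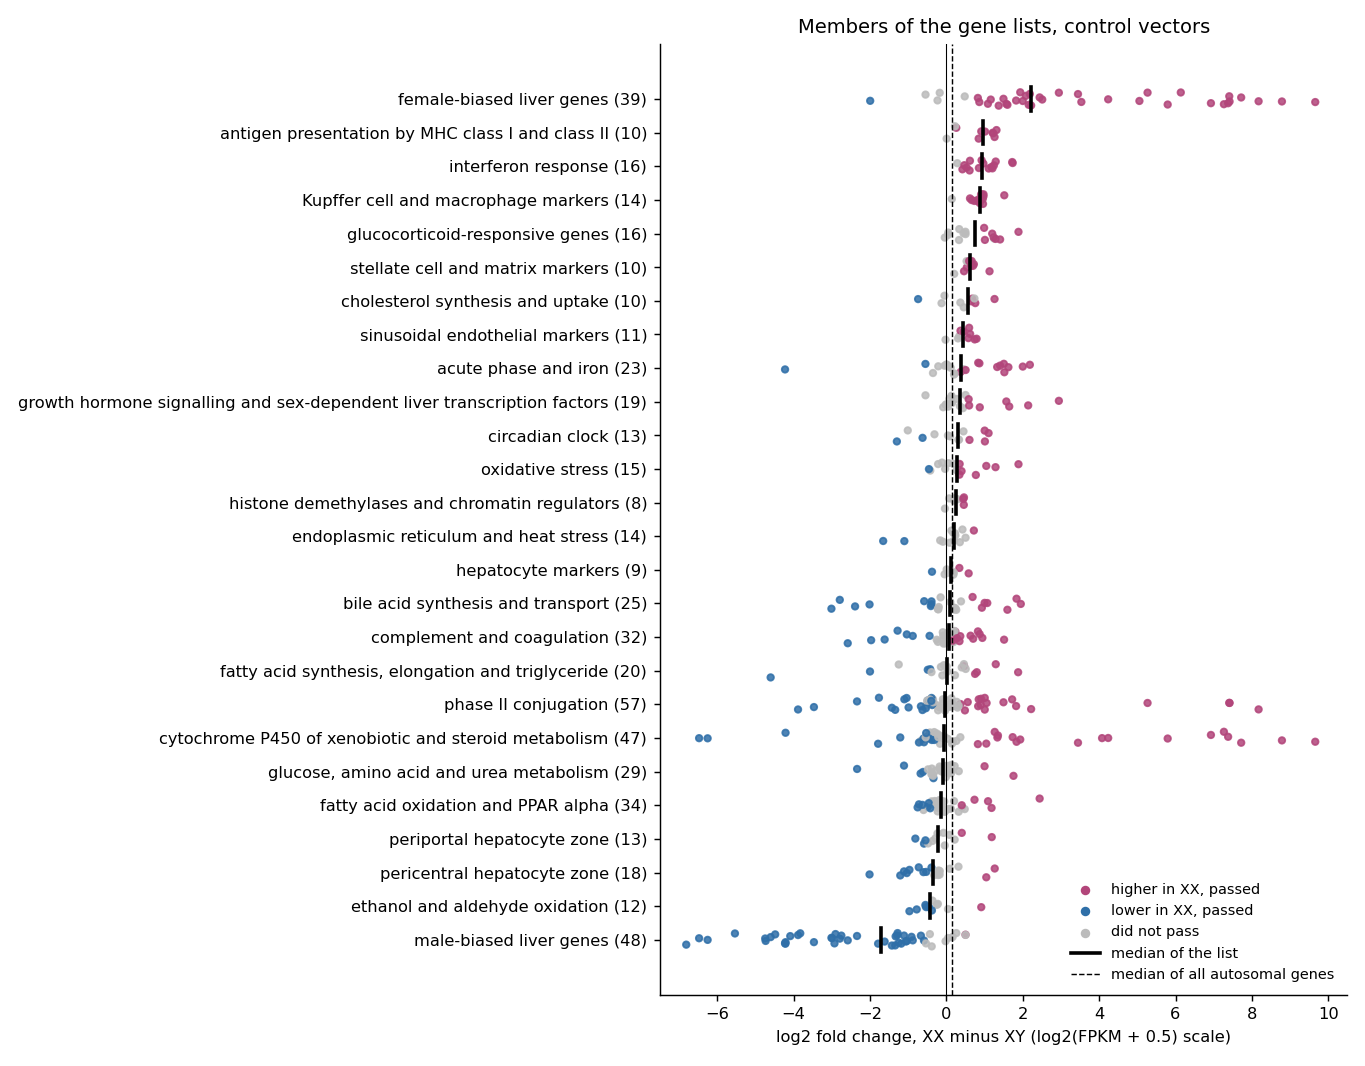
Log2 fold change (XX minus XY, x axis) of the autosomal members of each gene list with at least 8 tested members (y axis, number of members in brackets). Points are genes, coloured by whether they passed, thick bars are list medians, and the dashed line is the median of all autosomal genes at 0.15. Female-biased genes have a median of 2.22, male-biased genes of -1.70, and antigen presentation, interferon and Kupffer cell lists have medians of 0.96, 0.95 and 0.89.

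Most interferon-induced and antigen presentation genes in the table were higher in XX. Of 16 interferon response genes 15 were higher and 0 lower, with a median log2 fold change of 0.95, and 13 were higher after scaling. Gbp2, a guanylate-binding protein of antimicrobial defence, measured 6.22, 3.97 and 4.44 FPKM in XX livers, against 0.97, 1.23 and 1.12 FPKM in XY livers (log2 fold change 1.72 ± 0.20, adjusted p = 1.64e-06). Cxcl9, a T cell attractant, measured 9.17, 6.14 and 8.50 FPKM in XX livers, against 2.33, 2.03 and 1.69 FPKM in XY livers. Gbp3 and Tgtp1 were 2.45-fold and 2.37-fold higher, and 73.1% of the windows of Tgtp1 also occur in other genes, mainly the near copy Tgtp2.

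Of 10 genes of antigen presentation 8 were higher in XX and 0 lower, and 7 were higher after scaling. The MHC class II gene H2-Aa measured 55.1, 47.4 and 45.6 FPKM in XX livers, against 17.2, 21.1 and 20.5 FPKM in XY livers (log2 fold change 1.31 ± 0.21, adjusted p = 6.79e-05). Cd74, the class II invariant chain, measured 132.4, 114.8 and 118.7 FPKM in XX livers, against 45.3, 55.5 and 51.1 FPKM in XY livers. H2-Ab1 and H2-DMb1 were 2.34-fold and 2.32-fold higher. The class I genes H2-K1 and H2-Q10 did not pass.

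Markers of non-parenchymal cells moved with these genes. Of 14 autosomal Kupffer cell and macrophage markers 13 were higher in XX (12 after scaling), and their summed level ran from 621.6 to 706.6 FPKM in XX livers and from 318.6 to 423.4 FPKM in XY livers. Clec4f, which marks Kupffer cells, measured 47.4, 45.1 and 46.0 FPKM in XX livers, against 24.0, 31.1 and 27.8 FPKM in XY livers. Clec7a, Cd5l, Folr2 and Ctss were 2.86-fold, 1.96-fold, 1.96-fold and 1.94-fold higher. The lymphocyte marker list had 1 tested gene, the leukocyte antigen gene Ptprc, at 1.83-fold higher in XX, and no neutrophil marker was in the table.

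Of 10 stellate cell and matrix markers 8 were higher (7 after scaling), with sums of 455.7 to 564.6 FPKM in XX livers and 339.6 to 414.3 FPKM in XY livers. Of 11 sinusoidal endothelial markers 7 were higher (5 after scaling), with sums of 172.6 to 207.3 FPKM in XX livers and 119.9 to 148.2 FPKM in XY livers. Lum, Rgs5, Postn and Reln had log2 fold changes of 1.13, 0.72, 0.70 and 0.66, and Ehd3, Bmp2, Oit3 and Stab2 of 0.79, 0.74, 0.62 and 0.60. The haemoglobin genes Hbb-bs and Hba-a2 were 1.75-fold and 1.74-fold higher, the latter with a call in 4 of the 6 fits that left out 1 library. The X-linked erythroid gene Alas2, described in the last section, went the other way and was lower in XX. Of the windows of Hba-a2 79.5% also occur in other genes, and of those of Hbb-bs 49.7%, so that their single values are uncertain. In whole liver, more cells of a type and more RNA per cell cannot be told apart. The part of these markers in the interferon and antigen presentation results was not tested.

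Of 9 hepatocyte markers 2 were higher and 1 lower, a share of calls near the 42% of all autosomal genes, with a median of 0.12 and sums of 30210 to 35780 FPKM in XX livers and 32100 to 34380 FPKM in XY livers. Hnf4a, the central hepatocyte transcription factor, was 1.499-fold higher in XX, Apoa1 1.30-fold lower with a call in 2 of the 6 fits that left out 1 library, and Asgr2 1.27-fold higher as deposited but not after scaling (adjusted p = 0.12). Of 18 pericentral genes 9 were lower in XX and 2 higher, and of 13 periportal genes 3 were lower and 2 higher. After scaling these were 10 and 2, and 4 and 1. Of all autosomal genes 11.5% were lower and 30.4% higher as deposited, and 21.5% and 21% after scaling. The periportal share of calls was near the 42% of all autosomal genes. Among the pericentral genes Cyp2c37 was 2.40-fold higher, while Cyp7a1, Cyp2c54 and Oat had log2 fold changes of -2.01, -1.21 and -1.11. These 3 passed in 2, 3 and 4 of the 6 fits that left out 1 library. Among the periportal genes Ctsc was 2.28-fold higher, while Cyp2f2, Serpina1c and Sox9 had log2 fold changes of -0.59, -0.55 and -0.81. Tm4sf4, on the bile duct list, was 2.14-fold higher, and Sox9 is on that list too.

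Stress, cell cycle and chromatin genes were also listed. Of 14 genes of endoplasmic reticulum and heat stress 1 was higher and 2 lower, namely Herpud1 (1.65-fold higher), Asns, an asparagine synthetase (3.15-fold lower), and the heat shock gene Hspa1b (2.14-fold lower). Of 15 oxidative stress genes 7 were higher and 1 lower, and after scaling 4 and 2, with Hmox1 2.06-fold and Sod3 1.71-fold higher. Of 26 listed p53 and cell cycle genes only 4 were in the table. All 4 passed as higher in XX, against 30.4% of all autosomal genes. Ccnd1, which encodes cyclin D1, measured 29.5, 10.3 and 28.9 FPKM in XX livers, against 2.91, 3.27 and 3.22 FPKM in XY livers (log2 fold change 2.55 ± 0.28, adjusted p = 5.83e-07). Trp53inp1, Bax and Ccng1 were 1.82-fold, 1.81-fold and 1.52-fold higher. Of 8 chromatin regulators Tet2, Kmt2a and Kmt2d passed as deposited and 0 passed after scaling (adjusted p = 0.11, 0.11 and 0.075). Of 3 AhR target genes 1 was higher in XX and 0 were lower, and after scaling 1 and 1, too few genes to set against the share of all autosomal genes. Neither of the 2 fetal liver genes passed, and neither reached 1 FPKM in any control-vector mouse. Of the pancreas, adipose and muscle markers only Mb was in the table, listed at 0 in XX livers and at 0.62 to 2.29 FPKM in XY livers.

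Several families that serve every cell were counted as well. Of 31 Nduf genes of respiratory complex I 1 was higher and 0 lower, and of 25 proteasome genes (Psm) 1 was higher and 1 lower. The 12 ribosomal protein genes had a median of 0.37, with 9 higher as deposited and 5 after scaling. These families were looked at after the values were seen. By chromosome, the share of autosomal genes that passed ran from 30.1% on chromosome 17 to 54.2% on chromosome 18.

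The same sex contrast could be read in mice that had received active vectors, which share no animals with the control-vector mice but share the variance estimate. Of the genes tested 38.9% passed with the AhR vector, 36.2% with the Kdm5 vectors and 48.8% with both. Of the 675 genes higher in XX with control vectors, 393, 386 and 504 were also higher in XX in these 3 settings, which held 537, 550 and 839 such genes. Of the 256 lower, 180, 149 and 141 were also lower, of 326, 254 and 243. In all, 265 of the 675 (39.3%) and 117 of the 256 (45.7%) passed in the same direction in each setting. Calls in the opposite direction numbered 2, 7 and 4 for the genes higher in XX and 0, 7 and 8 for those lower.

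**Figure D4:**
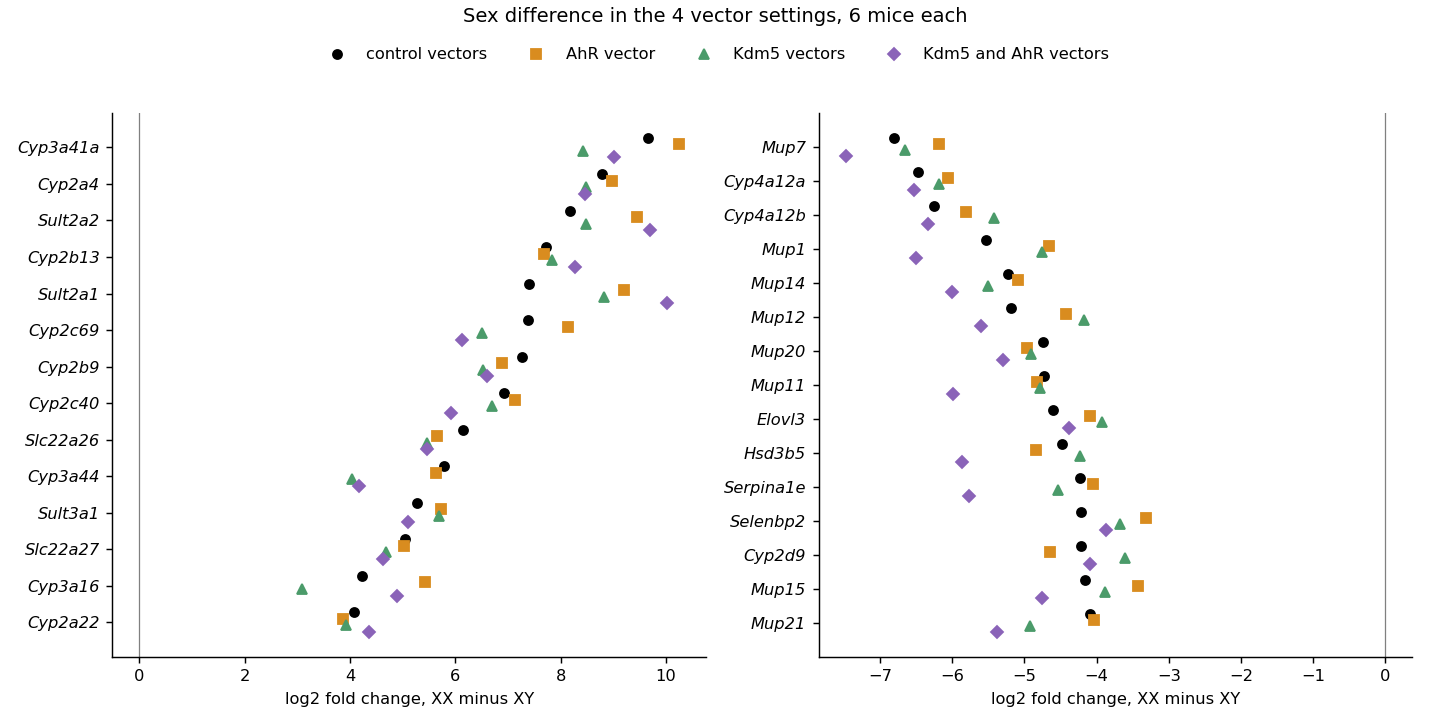
Log2 fold change (XX minus XY, x axis) of 29 genes with the largest differences with control vectors, in each of the 4 vector settings (symbols; 3 XX and 3 XY mice each). All 29 genes lie on the same side of 0 in every setting, with Mup7 between -7.47 and -6.18 and Cyp3a41a between 8.42 and 10.25.

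The largest sex differences recurred in every setting. Cyp3a41a had log2 fold changes of 10.25, 8.42 and 9.01 with the AhR vector, the Kdm5 vectors and both, against 9.66 with control vectors. For Mup7 they were -6.18, -6.65 and -7.47, against -6.81 with control vectors. Of all 2218 autosomal genes tested, 537, 550 and 839 were higher in XX with the AhR vector, the Kdm5 vectors and both. Immune lists gave these counts. Of 16 interferon genes 4, 7 and 8 were higher in XX in these settings, with medians of 0.41, 0.49 and 0.61, and of 10 antigen presentation genes 1, 7 and 2 were, with medians of 0.07, 0.61 and -0.11. Kupffer cell markers were higher in 7, 14 and 14 of 14 genes. With the AhR vector the interferon share was near that of all autosomal genes. The antigen presentation share lay below it with the AhR vector and with both. These list counts were not tested against each other.

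Whether the sex difference of control-vector mice differed from that of the other mice was tested gene by gene, as the control-vector difference minus the mean of the other 3. It did so for 42 autosomal genes (1.89%), 21 higher and 21 lower. Afp, the fetal serum protein, had the difference of largest size. It entered the tests only through mice with active vectors, since none of the control-vector mice reached 1 FPKM. With control vectors it measured 0.05, 0.23 and 0.33 FPKM in XX livers, against 0.35, 0.34 and 0.17 FPKM in XY livers, with no sex difference that passed. In mice with the AhR vector, the Kdm5 vectors and both it averaged 15.8 ± 5.23, 8.22 ± 2.22 and 20.9 ± 4.61 FPKM in XX livers, and 0.667 ± 0.405, 0.680 ± 0.115 and 0.363 ± 0.248 FPKM in XY livers. The difference was -3.95 ± 0.33 (adjusted p = 4.35e-07).

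Immune genes were among those with a larger difference in control-vector mice. H2-Aa averaged 38.5 ± 8.03, 37.3 ± 11.02 and 33.2 ± 10.9 FPKM in XX livers with the AhR vector, the Kdm5 vectors and both, and 44.2 ± 7.19, 21.9 ± 1.86 and 35.7 ± 6.03 FPKM in XY livers. Its control-vector sex difference exceeded the mean of these by 1.19 ± 0.24 (adjusted p = 0.029). Cd74, H2-Ab1 and Gbp2 did so by 1.03, 1.12 and 1.01. Lpin1 differed by 2.68 ± 0.58 (adjusted p = 0.029), since it was higher in XX with control vectors and had log2 fold changes of 0.21, -1.78 and -0.83 in the other settings.

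These differences rested on few mice. Without XX mouse 1 the count was 2 and without XY mouse 3 it was 1, against 31 to 57 without any 1 of the other 4 control-vector mice. Afp alone of the 42 passed in each of these 6 fits. None of these fits left out a mouse with an active vector, and Afp was high only in such mice. They therefore cannot show how far its difference rests on single mice.

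**Figure D5:**
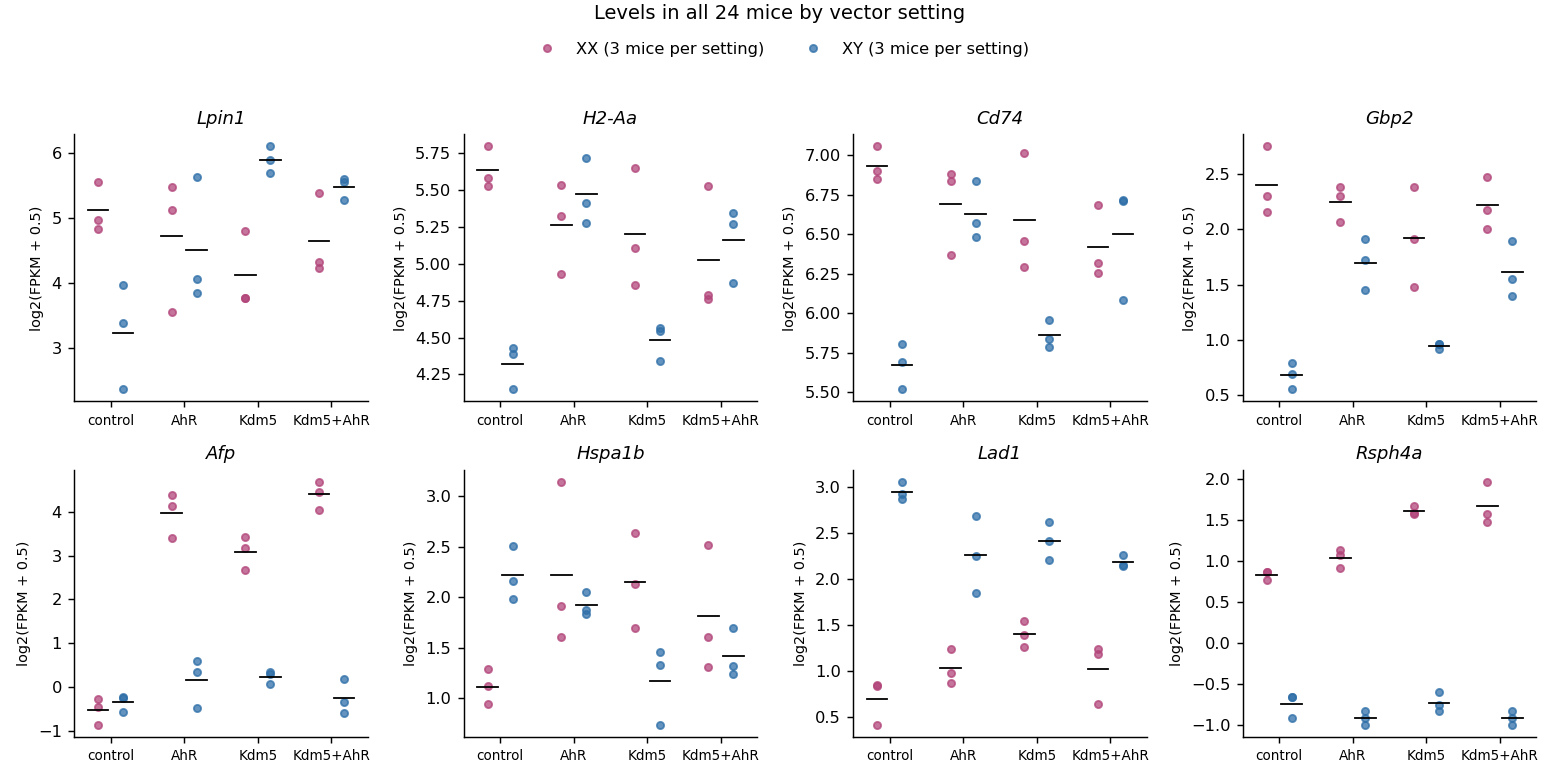
Level of 8 genes in all 24 mice, as log2(FPKM + 0.5) on the y axis, by vector setting on the x axis, with XX left of XY in each setting. Points are mice and bars are group means of 3. For H2-Aa and Cd74 the sexes are apart with control vectors and overlap with the AhR vector, and Afp in XX is low with control vectors and high in the other settings.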

How the data were processed

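Liver RNA of 24 mice (8 groups of 3) was read from 1 table of FPKM values, deposited by the authors with 2 decimals per the file headers, although its deposited name speaks of raw counts. Per the submitters' processing notes, HISAT, Bowtie2 and the build GRCm38.p6 were used; neither the counting step, its use of strand, nor the choice of the 2372 genes is given in the sources used here. Reads of overlapping or antisense genes may therefore be mixed. Read depth is unknown and no counting interval is given.

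A gene entered the tests when 3 or more libraries reached 1 FPKM (2299 genes, of which 2218 autosomal by RefSeq; 14 had no chromosome and were left out). Values were tested as log2(FPKM + 0.5), which understates changes of low genes, with limma 3.58.1 in R 4.3.3 over all 24 libraries (1 mean per group, intensity trend, robust moderation, 16 residual degrees of freedom). P-values were adjusted by Benjamini-Hochberg over the 2299 genes and called under 0.05. The procedure was also run on simulated data, with planted changes far smaller than the largest seen here and no difference in Mup share between the sexes. That run cannot show how calls respond to such a difference. Genes were named by a rule: among autosomal genes that passed, averaged at least 1 FPKM and did not overlap, the 15 at either end of the log2 fold changes; up to 4 passing members of each of 34 lists; and up to 10 highest and 10 lowest differences between settings. Genes named beyond this rule, such as those that did not pass, were chosen after their values were seen. The lists, the rule and the comparison were chosen with earlier results of these data known. Alternatives were other scalings, filters, pseudocounts, variance settings, library weights, the 6 libraries alone, and leaving out each control-vector library. A ± after FPKM is an SD and after a log2 value an SE. Kdm5b was not analysed here, and some genes that the rule names are not reported here.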

Additional observations from a re-analysis of the deposited data

Results flagged for a closer look

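The sex difference with control vectors differed from the mean sex difference of the other 3 vector settings in 42 autosomal genes, by a limma contrast over all 24 libraries (adjusted p under 0.05). The difference uses the same 6 control-vector mice as the report, so these genes are not independent of it.

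Among the genes with the lowest differences, Afp had -3.95, Hspa1b -1.66, Igf2 -1.11, Lad1 -1.11 and Tlr12 -1.09 on the log2 scale. Tbc1d30 had -1.03, Tuba8 -0.96, Bik -0.75, Paqr7 -0.72 and Rsph4a -0.71. Neither Afp nor Igf2 reached 1 FPKM in any control-vector mouse, so both entered the tests only through mice with active vectors. Rsph4a was higher in XX in all 4 settings, with log2 fold changes of 1.58 with control vectors and 1.95, 2.33 and 2.58 in the others, and Lad1 was lower in XX in all 4.

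Among the highest, Lpin1 had 2.68, Ubd 2.11, Herpud1 1.21, H2-Aa 1.19 and Nat8f1 1.16. H2-Ab1 had 1.12, Arrdc2 1.04, Gm12250 1.03, Cd74 1.03 and Gbp2 1.01. Of these 20, all passed after median-of-ratios scaling, but 18 did not pass without XX mouse 1 and 19 without XY mouse 3. Afp alone passed in each of the 6 fits that left out 1 control-vector library. Those fits kept every mouse with an active vector, where alone Afp was high, and so do not test its dependence on single mice. Groups of 3 were not searched for outlying mice.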

How the results depend on the processing

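The count of 931 autosomal genes stayed within 1.5-fold under every alternative run, from 660 with the 6 libraries alone to 1038 with library weights, and from 741 (without XX mouse 1) to 998 (without XX mouse 2) when 1 library was left out. The genes higher in XX numbered 535 to 717 and those lower 202 to 281 in these leave-out fits. Median-of-ratios scaling raised the genes lower in XX to 477, and this shift follows from the scaling itself, after which the median log2 fold change over all autosomal genes was -0.01 in place of 0.15. The 42 differences between settings became 65 with median-of-ratios scaling, 73 with upper-quartile scaling and 131 with library weights, and the cause was not tested. They ranged from 1 to 57 in the leave-out fits. Of the 117 genes named for the control-vector comparison, 0 changed sign under any alternative, and 6 lost their call with median-of-ratios scaling and 13 with the 6 libraries alone. With the AhR vector, the Kdm5 vectors and both, counts of 863, 804 and 1082 became 923, 790 and 1315 after scaling. No paired analysis was possible because replicate numbers were given in sample order and the labels tie no XX mouse to an XY mouse. Depth is unknown, so its limit on low genes cannot be given.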

Other observations

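X-linked genes were outside the comparison above. Of 62 tested, 33 were higher in XX and 5 lower (61.3%), with a median log2 fold change of 0.40, and after median-of-ratios scaling 24 were higher and 8 lower. Genes known to escape X inactivation in mice were among the higher ones. Eif2s3x, a translation initiation factor, measured 47.7, 44.3 and 46.8 FPKM in XX livers, against 28.3, 30.0 and 23.6 FPKM in XY livers (log2 fold change 0.76 ± 0.09, adjusted p = 1.97e-06). Ddx3x, an RNA helicase, measured 54.0, 51.1 and 52.0 FPKM in XX livers, against 33.4, 33.4 and 23.5 FPKM in XY livers, and Kdm6a, a histone demethylase, 4.37, 3.54 and 3.08 FPKM in XX livers, against 2.30, 1.74 and 1.5 FPKM in XY livers. No X-linked gene named here overlapped between the sexes.

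Larger X-linked differences were not those of escape genes. Serpina7, which encodes thyroxine-binding globulin, was 3.79-fold higher in XX, and Alas2, the erythroid haem synthesis enzyme, was 4.54-fold lower. The genes of these 2 paragraphs were chosen after their values were seen.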
